A study of Homo sapiens with 4 samples.

Results

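Small nucleolar RNA (snoRNA) host genes are transcribed as long RNAs whose introns carry snoRNAs. They were taken here as every entity with the symbol SNHG followed by digits alone, together with GAS5, ZFAS1, EPB41L4A-AS1 and DANCR. The rule used the symbol and no measured value, and it found 25 genes among the 53826 entities of the series. RNA came from PK-1 cells, a human pancreatic ductal adenocarcinoma line, and was sequenced as 4 libraries. In the stable model the cells carried a retroviral pMXs vector with FLAG-tagged SPRR1A, a small proline-rich protein of the cornified envelope, or with the control DsRed, a red fluorescent protein. In the transient model they were transfected with a pCAG plasmid that encodes FLAG-tagged SPRR1A, or with one that encodes green fluorescent protein (GFP). The models therefore differ in vector, delivery, control protein and duration, and differences between them cannot be told apart from any of these. Each condition had 1 library, so no difference below has a replicate check and none was tested.

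Most snoRNAs are cut out of the introns of a host transcript after splicing. Box C/D snoRNAs guide 2′-O-methylation of ribosomal RNA with the proteins FBL, NOP56, NOP58 and SNU13. Box H/ACA snoRNAs guide pseudouridylation with DKC1, NHP2, NOP10 and GAR1, and the related small Cajal body RNAs guide modification of spliceosomal RNAs. The exons of many noncoding hosts hold short open reading frames and are degraded by nonsense-mediated decay during translation, and several hosts begin with a pyrimidine run, the terminal oligopyrimidine (TOP) start typical of ribosomal protein genes. Individual hosts such as GAS5, SNHG1 and DANCR have also been studied as long noncoding RNAs in growth and cancer.

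The annotated starts of 21 of the 25 host genes were found in the RefSeq promoter table of GRCh38.p14, which gives 1 start per gene. SNHG6, SNHG15, SNHG9 and SNHG25 had no entry. A TOP start was searched as a C at the start followed by at least 4 bases that are C or T, on the strand of the gene. It was present in 6 of the 21 genes (28.6%), in 1429 of all 35116 promoters (4.07%) and in 46 of 77 promoters of cytoplasmic ribosomal proteins (59.7%). The 6 windows are shown because they place part of the hosts beside the ribosomal protein genes, and 3 hosts without such a run at the annotated start are shown for contrast. Each window holds 10 bases before and 20 bases from the start, 5′ to 3′ on the strand of the gene, and the capitals mark the pyrimidine run. A match describes these letters and does not show that the run acts in translation.
ZFAS1, chr20:49278632-49278661, plus strand: gccattcgttCTTTCgcgtctgcggtgccc
SNHG19, chr16:2155339-2155368, minus strand: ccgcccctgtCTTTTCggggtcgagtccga
SNHG5, chr6:85678714-85678743, minus strand: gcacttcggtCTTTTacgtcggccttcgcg
SNHG12, chr1:28581854-28581883, minus strand: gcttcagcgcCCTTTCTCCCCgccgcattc
SNHG18, chr5:9546190-9546219, plus strand: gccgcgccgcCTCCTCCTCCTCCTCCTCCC
SNHG4, chr5:139274091-139274120, plus strand: ctcccggctgCCCTTTCCCCTCCggcctct
GAS5, chr1:173869026-173869055, minus strand: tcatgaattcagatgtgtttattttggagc
SNHG1, chr11:62855866-62855895, minus strand: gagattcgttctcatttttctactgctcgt
DANCR, chr4:52712384-52712413, plus strand: tgcgcgccccgcccttgcccagagtcttcc

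Within the RefSeq spans of the hosts lay 55 small RNA entities of the table, namely 31 box C/D snoRNAs, 20 box H/ACA snoRNAs and 4 small Cajal body RNAs. GAS5 held 11 of them, SNHG1 held 8, SNHG17 and SNHG12 held 4 each, and SNHG27 held none. By the canonical transcript of each host, 51 lay in introns and 4 (SNORA103, SNORA9, SNORA71E and SCARNA17) overlapped an exon. The strand of the small RNA was checked in GENCODE 44 for 41 of the 55. The other 14 were not found there under the same name at the same place and were assigned by span alone, and they include all of those in GAS5. The sequences of 6 hosted RNAs on which the values below turn were read from hg38 at their RefSeq coordinates, 5′ to 3′ on the host strand. Capitals mark a C box (TGATGA, searched in the first 15 bases), a D box (CTGA, searched in the last 15 bases), or, in the SNORA sequences, an ACA in the last 6 bases.
SNORD47, GAS5, chr1:173864369-173864445, minus strand: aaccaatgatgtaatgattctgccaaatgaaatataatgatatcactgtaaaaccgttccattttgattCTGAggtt
SNORD80, GAS5, chr1:173864833-173864903, minus strand: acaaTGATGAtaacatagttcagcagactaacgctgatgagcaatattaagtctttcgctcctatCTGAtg
SNORA103, GAS5, chr1:173866205-173866290, minus strand: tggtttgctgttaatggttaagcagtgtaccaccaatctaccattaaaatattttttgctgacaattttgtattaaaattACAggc
SNORD30, SNHG1, chr11:62853663-62853732, minus strand: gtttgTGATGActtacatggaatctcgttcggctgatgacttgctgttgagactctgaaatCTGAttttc
SNORA71A, SNHG17, chr20:38427306-38427443, minus strand: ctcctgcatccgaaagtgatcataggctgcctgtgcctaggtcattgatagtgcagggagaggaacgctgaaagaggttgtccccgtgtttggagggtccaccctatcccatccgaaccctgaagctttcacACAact
SNORD99, SNHG12, chr1:28578743-28578822, minus strand: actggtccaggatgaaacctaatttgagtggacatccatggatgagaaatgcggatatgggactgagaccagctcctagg
Both boxes were present, in these exact letters, in 16 of 30 box C/D sequences searched and in 0 of the 30 reverse complements. The ACA was present in 19 of 20 box H/ACA sequences and in 2 of the 20 reverse complements. SNORD99 held none of these letters in the places searched.

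The values are the log2 of TPM, a unit in which reads are divided by the length of the transcript and every library has the same total, so levels of different genes can be compared per length. No value lies below 0, the floor given to a TPM of 1 or less, and between 12964 and 13558 entities lay above that floor per library. The depth in reads is unknown, and TPM keeps no trace of it. SPRR1A checked the labels, with a log2 TPM of 10.93 beside 0.75 for DsRed in the stable model and of 16.60 beside 3.56 for GFP in the transient model. Its RNA made up 9.90% of the TPM of the transient SPRR1A library and 0.196% of that of the stable SPRR1A library. The ductal and epithelial markers KRT7, KRT8, KRT18, KRT19, EPCAM and SOX9 were all expressed, with SOX9 lowest at 5.46 to 5.66. INS, GCG, CPA1, CELA3A, LUM, DCN, PTPRC, PECAM1 and CDH5, which define other pancreatic, stromal and blood cells, were at 0 in all 4 libraries, PRSS1 lay between 0.64 and 1.86 and COL1A1 between 1.96 and 2.62.

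Of the 25 host genes, 24 were above the floor in all 4 libraries and SNHG27, on chromosome 4, was listed at 0 in all 4. A TPM of at least 5 was reached by 22 hosts in all 4 libraries and by 23 in at least 1. The TPM of all hosts summed to 2080 with SPRR1A and 2194 with DsRed in the stable model, and to 2028 with SPRR1A and 2144 with GFP in the transient model, which is 0.203% to 0.219% of each library. GAS5, ZFAS1, SNHG6 and SNHG1 were the 4 highest hosts in every library and made up 55.1%, 53.0%, 59.1% and 58.3% of these sums. The range of a host over the 4 libraries was between 0.10 (SNHG20) and 0.69 (DANCR) on the log2 scale, with a median of 0.40, and 15 of the 24 varied by less than 0.5.

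**Figure D1:**
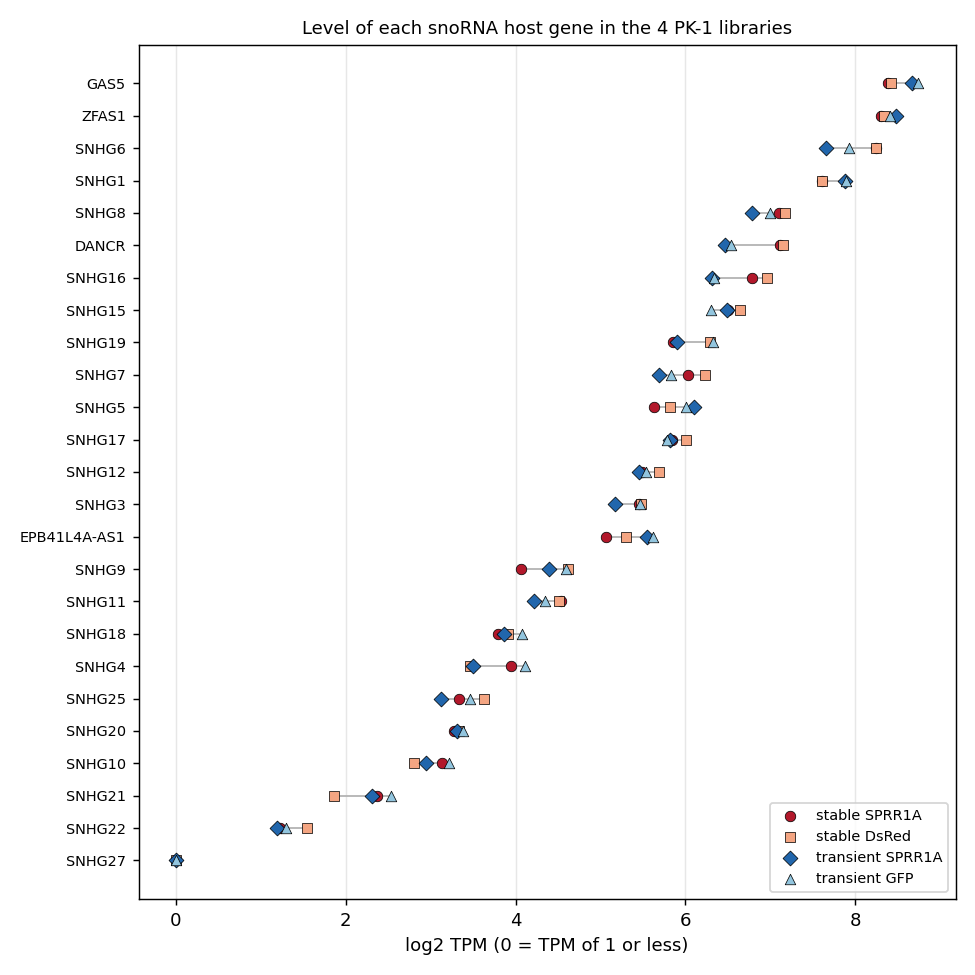
Level of each of the 25 snoRNA host genes on the log2 TPM axis, ordered by the mean, with 1 point per library. The 4 points of each of the 24 genes above the floor span 0.10 to 0.69, while the genes themselves span from GAS5, up to 8.74, to SNHG27 at 0.

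In the following, the 4 values of a gene are log2 TPM for SPRR1A and DsRed of the stable model, then for SPRR1A and GFP of the transient model. GAS5, at chr1:173863901-173869045 on the minus strand, accumulates when growth stops and carries 10 box C/D snoRNAs and SNORA103. Its levels were 8.38, 8.42, 8.66 and 8.74, so both transient libraries were above both stable libraries. ZFAS1, at chr20:49278178-49289260 on the plus strand, is the antisense neighbour of ZNFX1 and carries SNORD12, SNORD12B and SNORD12C, with levels of 8.30, 8.34, 8.48 and 8.41. SNHG1, at chr11:62851978-62855885 on the minus strand, carries 8 box C/D snoRNAs, SNORD22 and SNORD25 to SNORD31, and measured 7.61, 7.61, 7.87 and 7.89. In these 3 genes the libraries of a model differed by less than 0.10, and the transient libraries were the higher ones.

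Among the other box C/D hosts, SNHG6 (host of SNORD87) had levels of 8.24, 8.24, 7.66 and 7.93. SNHG16, at chr17:76557764-76565348 on the plus strand and host of SNORD1A, SNORD1B and SNORD1C, had levels of 6.79, 6.96, 6.31 and 6.34. In both the transient libraries were the lower ones. SNHG5, host of SNORD50A and SNORD50B, went the other way with 5.63, 5.82, 6.10 and 6.01. SNHG19, a compact gene at chr16:2154782-2155358 on the minus strand that holds SNORD60, measured 5.85, 6.29, 5.90 and 6.32. It was the one host in which both SPRR1A libraries lay more than 0.4 below their own control. SNHG18, host of SNORD123, measured 3.80, 3.91, 3.86 and 4.08, and SNHG25, host of SNORD104, measured 3.34, 3.62, 3.12 and 3.46. SNHG12, which holds SNORD99 and 3 box H/ACA snoRNAs, varied little, with 5.49, 5.69, 5.45 and 5.53.

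The hosts of box H/ACA snoRNAs were led by SNHG8 (SNORA24), with 7.10, 7.17, 6.78 and 7.0. DANCR, at chr4:52712394-52720697 on the plus strand, is known as an antagonist of differentiation and holds SNORA26, and its levels were 7.11, 7.15, 6.46 and 6.54. The stable and the transient libraries of DANCR formed separate pairs, with every stable value above every transient one. SNHG15 (SNORA9) measured 6.51, 6.65, 6.49 and 6.30. SNHG7, whose SNORA17A and SNORA17B were both listed at 0, measured 6.03, 6.23, 5.69 and 5.82. SNHG17, host of the paralogous snoRNAs SNORA71A to SNORA71D, was nearly level at 5.84, 6.0, 5.81 and 5.78. SNHG3, which overlaps RCC1 on the same strand over 4850 of its 4950 bases, measured 5.45, 5.48, 5.17 and 5.46. EPB41L4A-AS1 (SNORA13) measured 5.07, 5.30, 5.55 and 5.62, again with the transient libraries above the stable ones. SNHG9 (SNORA78) was lowest in stable SPRR1A cells, with 4.07, 4.62, 4.39 and 4.59. SNHG11 (SNORA71E and SNORA60) measured 4.53, 4.51, 4.22 and 4.35. SNHG4, at chr5:139274101-139284900 on the plus strand, holds SNORA74A and lies inside the span of MATR3, a gene for a nuclear matrix protein, on the same strand. Its levels were 3.95, 3.46, 3.49 and 4.11, so that the higher library was SPRR1A in the stable and GFP in the transient model.

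The small Cajal body RNA hosts were low. SNHG20 (SCARNA16) was the steadiest host at 3.28, 3.33, 3.31 and 3.38, SNHG10 (SCARNA13) measured 3.13, 2.80, 2.94 and 3.22, and SNHG21 (SCARNA15) measured 2.37, 1.87, 2.31 and 2.54. In SNHG10 and SNHG21 the stable DsRed library was the lowest. SNHG22 (SCARNA17) ranged from 1.20 to 1.55. Ordered by mean level, 11 of the 23 neighbouring pairs of hosts stood in the same order in all 4 libraries and 12 swapped in at least 1, so that GAS5 was above ZFAS1 and ZFAS1 above SNHG6 throughout, whereas SNHG7, SNHG5 and SNHG17 could not be ordered.

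The first question was whether SPRR1A overexpression moved the host genes in the stable model. A 2-fold difference was set as the call, and 0 of the 24 hosts passed it, where 0.947% of the 13310 entities did that exceeded the floor in either library. At 1.5-fold 0 of 24 hosts passed, beside 3.97% of those entities and 0.59% of the 9835 that reached a TPM of 5 in both libraries. In bulk RNA, fewer cells that express a gene and less RNA of it per cell cannot be told apart. Within this small spread the hosts lay on the low side. The stable SPRR1A library had the lower value in 19 of 24 hosts, with a median log2 difference of -0.09, while the median of all 13310 entities was 0.07 and 4798 of them were lower. Of the 22 hosts that reached a TPM of 5 in both libraries, 20 lay below the median of 0.06 of such entities. Among the lower hosts SNHG9 had the largest difference (-0.55, or 0.682 times the DsRed level), followed by SNHG19 (-0.43), SNHG22 (-0.32), SNHG25 (-0.29) and EPB41L4A-AS1 (-0.24). SNHG9, SNHG19 and SNHG25 have the shortest canonical transcripts of the hosts (339, 394 and 311 bases after splicing), so a given TPM rests on fewer reads in them. SNHG21 (0.50), SNHG4 (0.49) and SNHG10 (0.33) were higher in stable SPRR1A cells. SNHG6 differed by 0.00 and GAS5, ZFAS1 and DANCR by -0.04 each, so that the most abundant hosts were nearly level in this model.

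In the transient model 0 of the 24 hosts passed 2-fold, beside 0.889% of 13717 entities. At 1.5-fold only SNHG4 passed as deposited, 1 of 24, with a difference of -0.61 or 0.653 times the GFP level. Of these entities 3.93% passed it, and 0.591% of the 10154 that reached a TPM of 5 in both libraries. The transient SPRR1A library had the lower value in 20 of 24 hosts, with a median of -0.12, but so did 12343 of the 13717 entities, whose median was -0.19. After centring on the median of entities that reached a TPM of 5, 10 of 24 hosts were lower, as were 10 when the TPM total was taken without SPRR1A. The hosts were therefore not low relative to other genes in this model, and of the 22 that reached a TPM of 5 in both libraries 13 lay above the median of -0.18 and 9 below it. SNHG19 (-0.42), SNHG25 (-0.34), SNHG3 (-0.29), SNHG10 (-0.28) and SNHG6 (-0.27) had the lowest values after SNHG4. SNHG4 differed by -0.43 after centring and by -0.46 with the total taken without SPRR1A, both short of 1.5-fold. These were the largest differences in size of any host under those settings. SNHG15 (0.19), SNHG5 (0.09), ZFAS1 (0.07) and SNHG17 (0.03) were higher in transient SPRR1A cells as deposited.

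**Figure D2:**
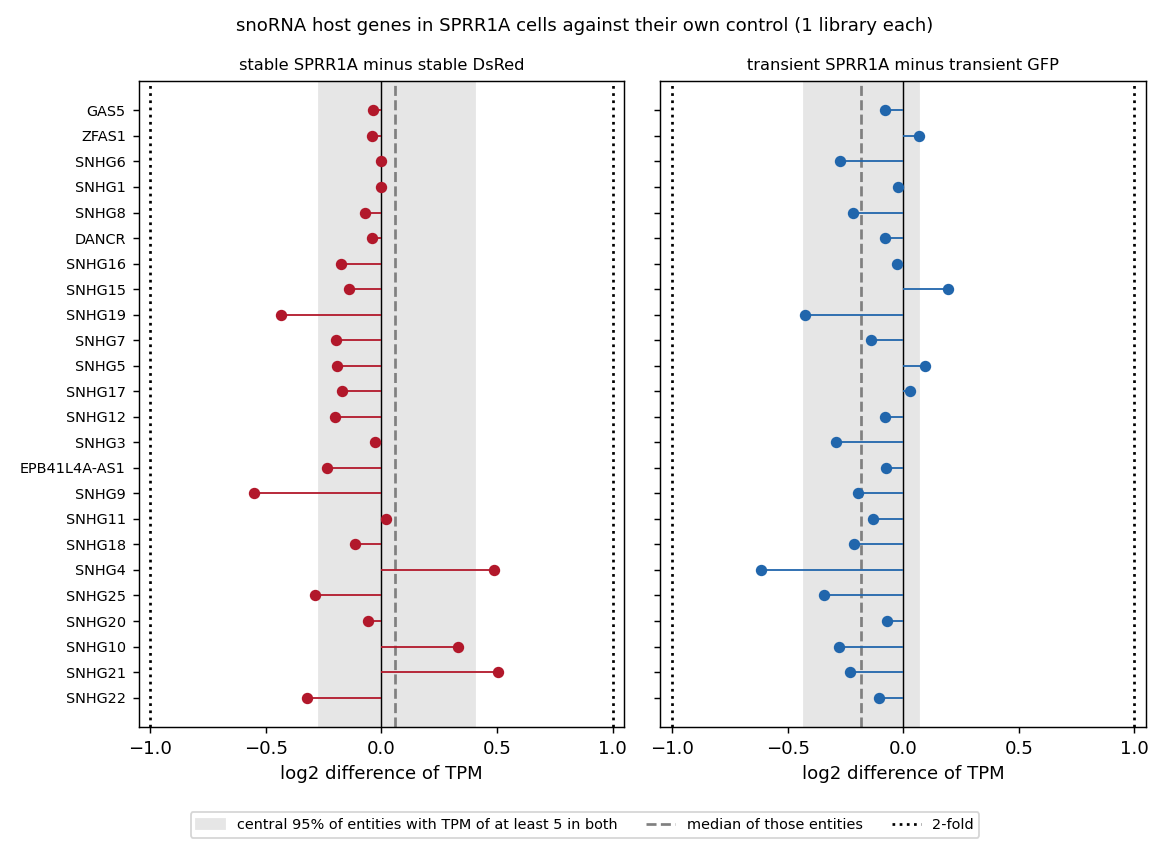
Log2 difference of TPM between SPRR1A and control for the 24 host genes above the floor, in the stable model (left) and the transient model (right), 1 library per condition. The grey band holds the central 95% of entities that reached a TPM of 5 in both libraries and the dashed line is their median. Most points lie left of the dashed line in the stable model, 20 of 22 at that level, and around it in the transient model, 9 of 22.

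The stable and the transient comparison share no library. As deposited, 15 of the 24 hosts were lower in SPRR1A than in control cells in both, 0 were higher in both and 9 went in opposite directions. Of all entities, 4798 of 13310 were lower in the stable and 12343 of 13717 in the transient comparison. After each comparison was centred on the median of entities that reached a TPM of 5, 7 hosts were lower in both (SNHG6, SNHG8, SNHG19, SNHG3, SNHG9, SNHG18 and SNHG25), 0 were higher in both and 17 were opposite. Joint directions over all entities were not computed, so neither set of counts is read as particular to the hosts. SNHG19 was the clearest of the 7, with -0.43 and -0.42 as deposited and -0.49 and -0.24 after centring. It is also among the shortest hosts, as are SNHG9 and SNHG25, so the precision of these values is uncertain. SNHG4 was the most opposed, with 0.49 and -0.61. MATR3, whose span contains SNHG4, measured 6.85, 6.60, 6.61 and 6.87 and went the same ways, with 0.25 and -0.25. How reads were divided between these overlapping genes is not given in the sources used here, so their values cannot be told apart with certainty. The same holds for SNHG3, which overlaps RCC1, and for SNHG20, which overlaps SEC14L1 over 6302 of its 6344 bases on the same strand.

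The second question was how the host genes differed between the models. Between the controls, transient GFP against stable DsRed, 0 of 24 hosts passed 2-fold, beside 7.52% of 13761 entities. At 1.5-fold 4 of 24 passed as deposited, beside 22.9% of these entities. SNHG21 (0.67) and SNHG4 (0.65) were higher in transient GFP cells, and SNHG16 (-0.62) and DANCR (-0.61) were lower. Among hosts that reached a TPM of 5 in both libraries 3 of 22 passed 1.5-fold, beside 15.4% of such entities. The share of hosts was thus no larger than that of all entities by either count. Between the SPRR1A libraries, transient against stable, 0 of 24 hosts passed 2-fold, beside 3.59% of 13549 entities. As deposited, DANCR (-0.65) alone passed 1.5-fold, a log2 difference of 0.585 either way. Of these entities 13.2% passed it, and 7.74% of those that reached a TPM of 5 in both libraries. After centring, DANCR (-0.53) fell short, while EPB41L4A-AS1 (0.594) and SNHG5 (0.593) passed. With the total taken without SPRR1A, DANCR (-0.50) fell short too, and EPB41L4A-AS1 and SNHG5 (both 0.63) passed.

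These pairs of libraries share none with each other, although each library is also used in a comparison of SPRR1A with control above. As deposited, 8 hosts were higher in the transient model in both pairs, 12 were lower in both and 4 went in opposite directions. After centring, the counts were 6, 8 and 10. Joint directions over all entities were not computed here either. As deposited, 4508 of 13761 entities were lower in the transient library between the controls, and 8059 of 13549 between the SPRR1A libraries. DANCR was lower in the transient model, with differences of -0.61 between controls and -0.65 between SPRR1A libraries, and of -0.74 and -0.53 after centring. SNHG16, SNHG6 and SNHG7 were also lower by more than 0.25 in both pairs, with -0.62 and -0.47 for SNHG16, -0.31 and -0.58 for SNHG6, and -0.40 and -0.34 for SNHG7. GAS5 (0.32 and 0.28), SNHG1 (0.28 and 0.27) and EPB41L4A-AS1 (0.32 and 0.48) were higher by more than 0.25 in both. Each of these 7 genes kept its direction in both pairs after centring.

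**Figure D3:**
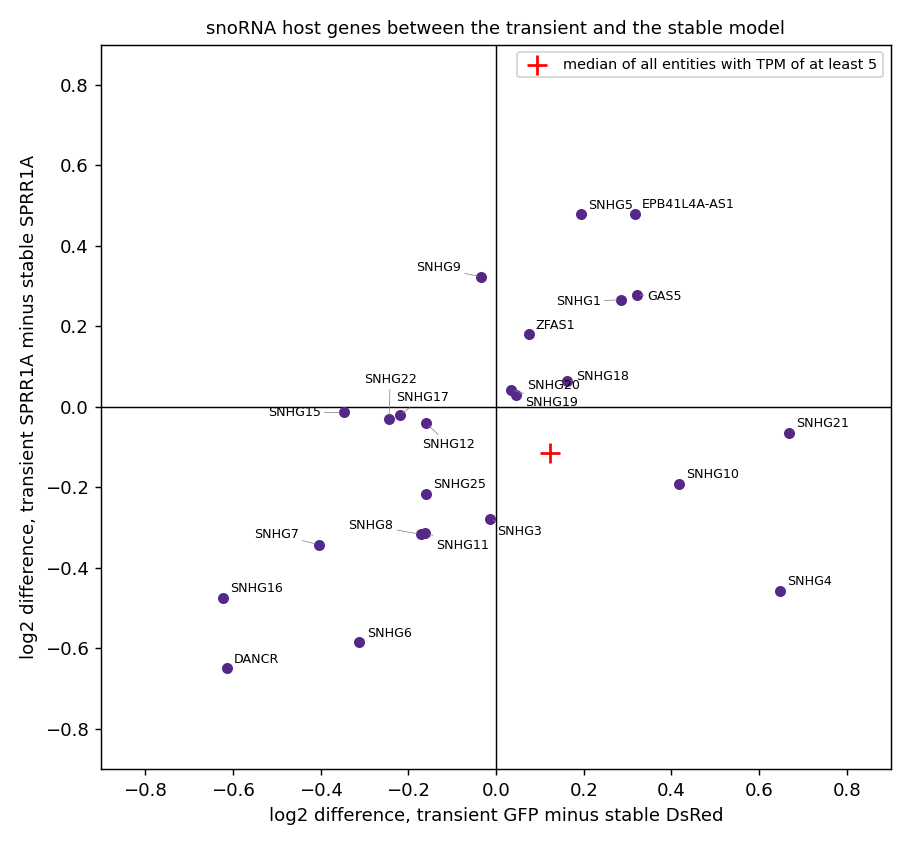
Each point is 1 of the 24 host genes, with the log2 difference between the control libraries (transient GFP minus stable DsRed) on the horizontal axis and between the SPRR1A libraries (transient minus stable) on the vertical axis. DANCR, SNHG16, SNHG6 and SNHG7 lie at the lower left and GAS5, SNHG1, SNHG5 and EPB41L4A-AS1 at the upper right, SNHG4 lies at the lower right, and the red cross at 0.12 and -0.11 is the median of all entities that reached a TPM of 5 in both libraries of a pair.

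The hosts were then grouped by what they carry, a grouping made after their values were seen. Of the 10 hosts that carry box H/ACA snoRNAs alone, 8 were lower in transient GFP than in stable DsRed cells (median -0.17) and 8 were lower in transient than in stable SPRR1A cells (median -0.29). The exceptions were EPB41L4A-AS1 in both pairs, SNHG4 between the controls and SNHG9 between the SPRR1A libraries. Of the 8 hosts that carry box C/D snoRNAs alone, 3 were lower in each pair, with medians of 0.05 and 0.05. After centring, 8 and 6 of the 10 box H/ACA hosts and 5 and 3 of the 8 box C/D hosts were lower. Centring shifts all hosts of a pair alike, so it moves these counts but not the gap between the class medians. Between SPRR1A and control these classes did not part, with 8 of 10 and 7 of 8 lower in the stable model and 8 of 10 and 6 of 8 in the transient model as deposited. Of the 4 hosts of small Cajal body RNAs, 2 were lower in stable SPRR1A cells (median 0.14) and 4 in transient SPRR1A cells (median -0.17), or 2 of 4 in each after centring. Between the controls 1 of these 4 was lower in transient GFP cells (median 0.23), and between the SPRR1A libraries 3 were lower in the transient one (median -0.05).

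Hosts with a match to the TOP rule, and hosts without one, included genes of either direction in each SPRR1A comparison. The split rests on exact letters at 1 annotated start per gene, so hosts without a match are not shown to lack a TOP start. SNHG1, for example, begins ctca at its annotated start and has no match. Of the 6 with a match (ZFAS1, SNHG19, SNHG5, SNHG12, SNHG18 and SNHG4), 5 were lower in stable SPRR1A cells (median -0.15) and 4 in transient SPRR1A cells (median -0.15). Of 14 expressed hosts without a match, 11 and 13 were lower (medians -0.05 and -0.09). In the transient comparison both groups lay above the median of -0.18 of entities that reached a TPM of 5. Between the controls 1 of the 6 was lower in transient GFP cells (median 0.12), beside 8 of the 14 others (median -0.09). Ribosomal protein genes, the classical TOP genes, were nearly uniform in direction. In stable SPRR1A cells 69 of 77 were lower (median -0.05), beside 4798 of all 13310 entities (median 0.07). In transient SPRR1A cells 76 of 77 were lower (median -0.09), beside 12343 of all 13717 entities (median -0.19). The ribosomal protein genes thus lay below the median of all entities in the stable comparison and above it in the transient one. Between the controls 69 of 77 were lower in transient GFP cells (median -0.21), and RPL36A (-1.26) was the one that passed 2-fold. The median of the 6 hosts with a match lay level with the median of 0.12 of all entities that reached a TPM of 5 in that comparison, and the ribosomal protein genes lay below it.

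The hosted small RNAs showed far wider differences than their hosts. The libraries were made from polyadenylated RNA, mature snoRNAs have no poly(A) tail, and reads over a snoRNA cannot be told apart from reads of unspliced host RNA or of an intron lariat. For the 4 that overlap a canonical exon, they cannot be told apart from reads of spliced host RNA either. Of the 55 entities, 46 were above the floor in at least 1 library, 36 in all 4, and 9 were listed at 0 throughout. SNORD47 and SNORD80 of GAS5, shown above, had the highest levels, with 6.81, 7.11, 6.65 and 6.79 for SNORD47 and 6.61, 6.69, 6.48 and 6.58 for SNORD80, and SNORD104 of SNHG25 followed with 6.01, 6.33, 5.96 and 6.35. SNORD104 thus had a higher log2 TPM than SNHG25, its host, in every library. SNORD81, SNORD78 and SNORD77, which lie in the same host as SNORD47, were listed at 0.

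In the stable model 5 of 43 hosted small RNAs above the floor (11.6%) passed 2-fold, beside 17% of all 194 small nucleolar and Cajal body RNA entities. Of the 24 hosted small RNAs that reached a TPM of 5 in both libraries, 2 passed. SNORD99 of SNHG12 measured 2.47, 4.0, 2.43 and 2.41, so that stable DsRed alone was high and the stable difference was -1.53. SNORA103 of GAS5 measured 1.04, 2.43, 0.94 and 2.23, with both SPRR1A libraries low (-1.39 and -1.29). SNORA103 overlaps an exon of GAS5 and its strand was not checked, so its reads may include those of spliced GAS5 RNA. SNORD30 of SNHG1 measured 3.43, 4.49, 4.56 and 5.51, again with SPRR1A below its own control in both models (-1.06 and -0.94). SNORD12C (1.44) and SNORD50A, which was listed at 0 in stable DsRed cells, were higher in stable SPRR1A cells. In the transient model 5 of 45 (11.1%) passed 2-fold, all lower in SPRR1A, beside 12.6% of 214. They were SNORA71B (-1.68), SNORD1C (-1.59), SNORA103, SNORA71A and SNORD1B. All had a TPM under 5 in at least 1 of the libraries, and of the 25 hosted small RNAs that reached it in both, 0 passed. The low side was general in this comparison, where 12343 of all 13717 entities were lower. SNORA71A measured 2.43, 1.77, 1.96 and 3.20 and differed by -1.24, but SNHG17 also holds its paralogs SNORA71B, SNORA71C and SNORA71D, so the division of reads among them is uncertain, and the host itself differed by 0.03. The share of hosted small RNAs past 2-fold was below that of all such RNAs in both models.

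Between the controls 13 of 46 hosted small RNAs (28.3%) passed 2-fold, 9 of them higher in transient GFP cells, beside 24.6% of 211 such entities. Between the SPRR1A libraries 7 of 44 (15.9%) passed, beside 19.3% of 207. The snoRNAs of SNHG1 lay on one side. All 8 were higher in transient GFP than in stable DsRed cells, from 0.68 (SNORD31) to 1.54 (SNORD25) with a median of 0.82, and 7 of 8 were higher in transient than in stable SPRR1A cells (median 0.82). SNHG1 itself differed by 0.28 and 0.27. After centring on the median of all entities that reached a TPM of 5 the counts were again 8 and 7 of 8, with medians of 0.70 and 0.93. The GAS5 snoRNAs differed in direction. Of the 8 above the floor, 6 were lower in transient GFP than in stable DsRed cells (median -0.14) while GAS5 was higher by 0.32, and SNORD76 (1.42) and SNORD44 (0.20) were the exceptions. Between the SPRR1A libraries 5 of 8 were lower in the transient one (median -0.11). After centring, 6 of 8 were lower between the controls (median -0.26) and 4 of 8 between the SPRR1A libraries, so that the low side was seen in the control pair alone.

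**Figure D4:**
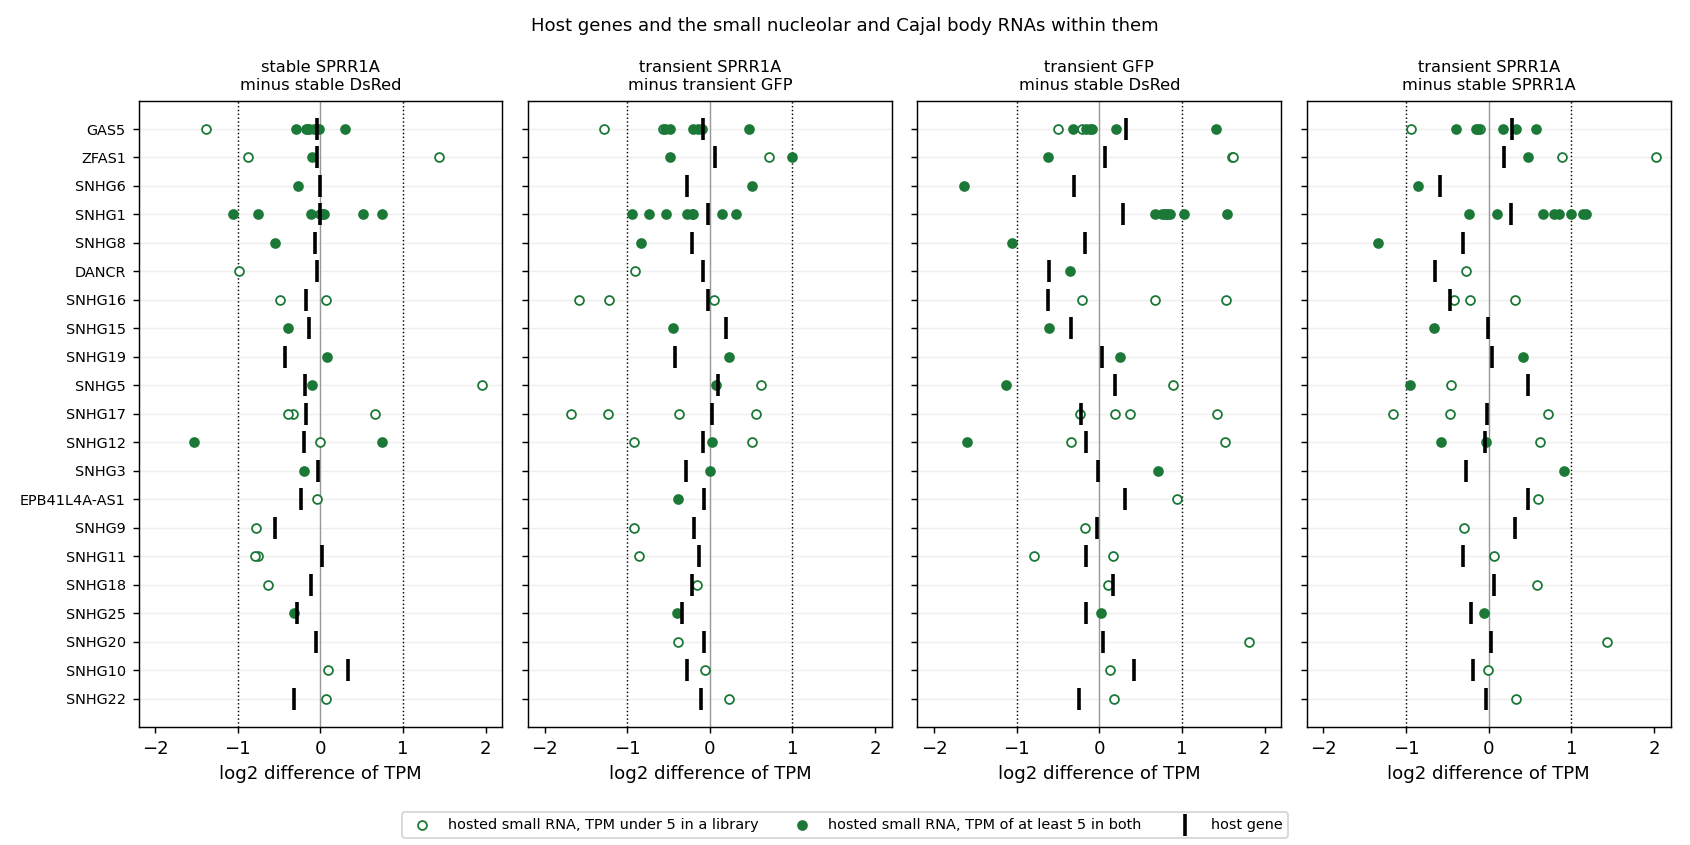
Log2 difference of TPM of each host gene with a small RNA above the floor in at least 1 library (black bar) and of the small RNAs within it (circles, filled where the TPM reached 5 in both libraries) in 4 comparisons, 1 library per condition, with dotted lines at 2-fold. The bars of these hosts stay between -0.65 and 0.48 while the small RNAs reach -1.68 and 2.02, and the SNHG1 circles lie together right of 0 in the control comparison.

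A hosted small RNA had the sign of its host in 28 of 43 cases in the stable comparison, 30 of 45 in the transient comparison, 28 of 46 between the controls and 29 of 44 between the SPRR1A libraries. Its difference exceeded that of the host in size in 35, 39, 33 and 28 of these. The signs are as deposited, and the agreement to be met among unrelated genes was not computed. In the transient comparison 30 of 45 hosted RNAs and 20 of 24 hosts were lower, so shared signs there do not show a link. Some host signs also rest on values near 0, such as SNHG1 (-0.002) and SNHG6 (0.0004) in the stable comparison. Small RNAs are short, so a given TPM rests on few reads, and the depth behind these values is unknown.

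The machinery that makes snoRNAs and removes their hosts was measured from lists of known components. The box C/D core proteins FBL, the methyltransferase, NOP56, NOP58 and SNU13 had a median difference of -0.15 in the stable comparison, with FBL at -0.16 and NOP58 at 0.05, and of -0.15 in the transient comparison, where 4 of 4 were lower. Between the controls 4 of 4 were lower in transient GFP cells (median -0.34), with FBL at -0.48. The box H/ACA core proteins had medians of -0.06 and -0.09 for SPRR1A against control and -0.36 and -0.35 between the models, led by GAR1 (-0.52) and NHP2 (-0.47) between the controls. None of these 8 genes passed 1.5-fold in a comparison.

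Of the 10 genes for assembly of the snoRNA-protein particle, 8 were higher in stable SPRR1A cells (median 0.12, highest SHQ1 at 0.23), and 10 of 10 were lower in transient SPRR1A cells (median -0.14). For the 5 genes of snoRNA release and trimming the medians were 0.15 and -0.18, and between the controls XRN1, a cytoplasmic exonuclease, was higher in transient GFP cells by 1.31 and XRN2, its nuclear counterpart, by 0.80. XRN1 was low, with 1.64, 1.29, 2.19 and 2.60. The 10 nonsense-mediated decay genes had medians of -0.01 and -0.15 for SPRR1A against control, and 0.05 and -0.11 between the models, with SMG1, the kinase of UPF1, higher in transient GFP than in stable DsRed cells by 0.55. Of the 4 exon junction genes, 3 were lower in stable and 4 in transient SPRR1A cells, and all 4 were lower in the transient model in both pairs (medians -0.17 and -0.23). The transient medians of all these lists lay at or above the median of -0.18 of entities that reached a TPM of 5. Apart from XRN1, no gene of these lists passed 2-fold in the 4 comparisons.

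Other genes that resemble the hosts by class or by cargo were set beside them. Long noncoding RNA genes other than the hosts, 841 above the floor in the stable comparison, had a median of 0.07, and 350 of them were lower in SPRR1A cells (41.6%, against 79.2% of the hosts). Most of these genes were low, and the 218 that reached a TPM of 5 in both libraries had a median of 0.02, beside -0.09 for the 22 such hosts. Protein-coding genes that hold a snoRNA on the same strand, ribosomal protein genes aside, had a median of 0.09, and 28 of 119 were lower (23.5%). The host genes therefore lay on the side of the ribosomal proteins and both sets of core proteins in the stable comparison. The other noncoding genes and the protein-coding hosts lay on the side of all entities. So did the genes of particle assembly (median 0.12, 8 of 10 higher) and of snoRNA release and trimming (median 0.15, 4 of 5 higher). The nonsense-mediated decay and exon junction genes lay near 0 (medians -0.012 and -0.005). In the transient comparison the medians were -0.20 for other long noncoding RNA genes and -0.17 for protein-coding hosts, both near that of all entities. Between the controls these lists had medians of 0.28 and 0.11, beside -0.02 for the host genes. Among genes that reached a TPM of 5 in both control libraries the medians were 0.15, 0.08 and -0.02. Without repeated libraries, the spread against which to read these differences between lists is unknown.

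**Figure D5:**
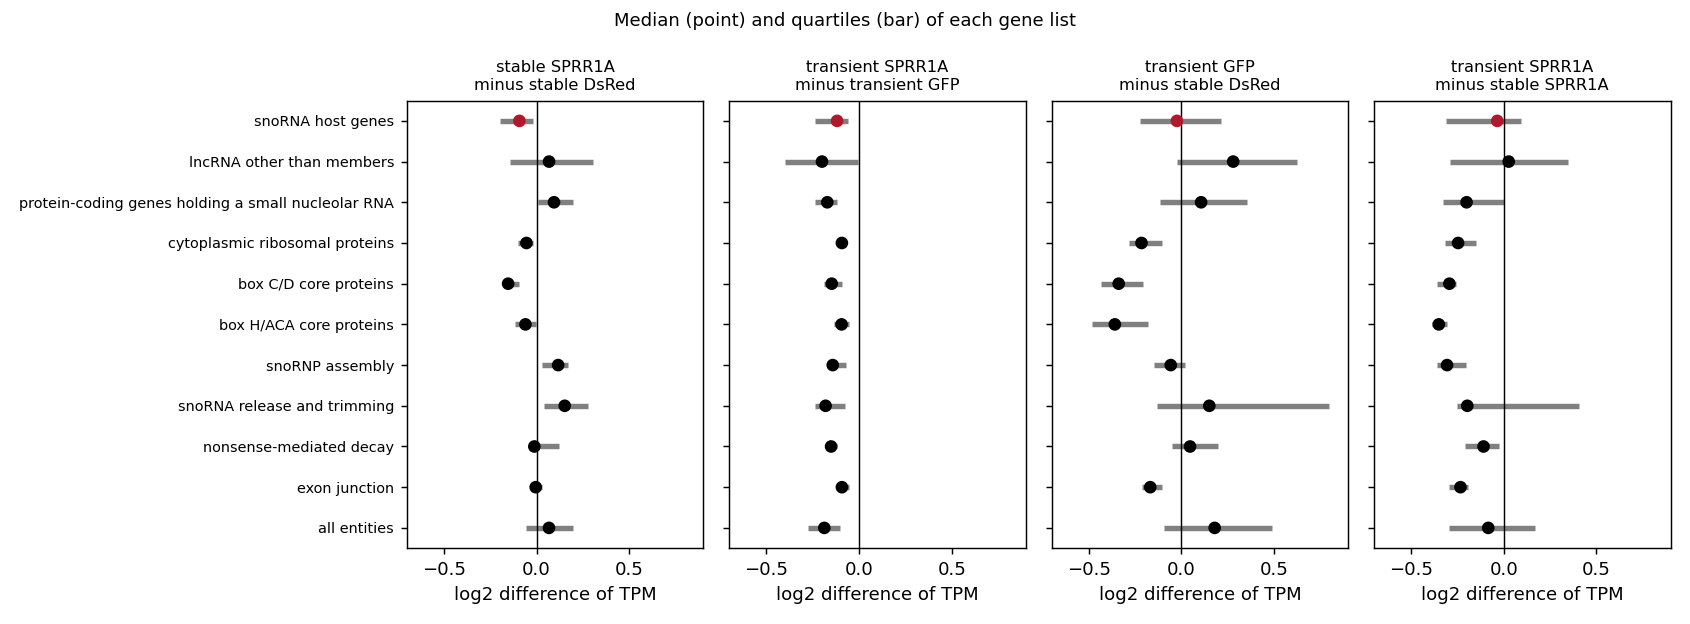
Median (point) and quartiles (bar) of the log2 difference of TPM for the host genes (red) and other gene lists in 4 comparisons, over the list members above the floor. In the stable comparison the host genes (-0.09) lie left of 0 with the ribosomal proteins (-0.05) and both sets of core proteins. Other long noncoding RNA genes (0.07), protein-coding hosts (0.09), assembly genes (0.12) and release and trimming genes (0.15) lie right of it.

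Some neighbours on the opposite strand differed from their host in direction or size and others did not, and those named here were picked after their values were seen. ZNFX1, antisense to ZFAS1, was higher in transient GFP than in stable DsRed cells by 0.76 and in transient than in stable SPRR1A cells by 0.68, where ZFAS1 differed by 0.07 and 0.18. EPB41L4A measured 2.89, 2.82, 2.38 and 2.58 and was lower in the transient model in both pairs, where EPB41L4A-AS1 was higher. PRSS12, which overlaps SNHG8 by the GENCODE spans, differed by -1.28 and -1.76, where SNHG8 differed by -0.17 and -0.32. DIPK1B, which overlaps SNHG7, measured 1.93, 2.24, 1.65 and 2.08 and had the sign of SNHG7 in all 4 comparisons. FSD2, which overlaps SNHG21, measured 0.95 and 0.46 in the stable model, was listed at 0 with SPRR1A in the transient model and measured 0.40 with GFP, so that SPRR1A was the higher library in the stable and the lower in the transient model, as for SNHG21. The kit marks strand, but whether the counting used it is not given in the sources used here.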

How the data were processed

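mRNA sequencing of 4 PK-1 libraries (TruSeq stranded mRNA) was analysed from the processed tables. The authors used Strand NGS for alignment to hg38 transcripts and deposited the log2 of the TPM per gene. The software version, annotation release and use of strand in counting are not given in the sources used here. Log2 differences were computed for 4 pairs of libraries over 53826 entities, called past 2-fold, and read beside the share of all entities called. Host genes with a TPM of at least 5 in a library were named, and hosted small RNAs, overlapping genes and pathway lists were described. The members and lists were chosen with earlier results of these data known. Positions came from RefSeq (GRCh38.p14), matched by Entrez Gene identifier, and from GENCODE 44, matched by gene name. Depth in reads is unknown, and with 1 library per condition there is no replicate check and no test was run, an additive fit of SPRR1A and model included. Alternatives were log2(TPM + 1), log2(TPM + 0.1), a TPM filter, centring on the median, dropping SPRR1A from the total, and a 1.5-fold threshold. The calculations were tested on simulated data. Python 3.11.15, numpy 2.4.6, pandas 2.3.3, pysam 0.24.0 and matplotlib 3.10.9 were used. Tumor data sets and other assays were not analysed here.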

Additional observations from a re-analysis of the deposited data

Results flagged for a closer look

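As deposited, the 9 host genes below had a higher value in SPRR1A than in control cells in one model and a lower value in the other. With 1 library per condition, how the models differ was not tested. As the stable minus the transient log2 difference, it was 1.10 for SNHG4, 0.73 for SNHG21, 0.61 for SNHG10 and 0.27 for SNHG6. It was 0.15 for SNHG11, -0.11 for ZFAS1, -0.20 for SNHG17, -0.29 for SNHG5 and -0.33 for SNHG15. MATR3, which contains SNHG4, had a stable difference of 0.25 and a transient difference of -0.25. For the other genes the opposite directions rest on differences of at most 0.50 in size in either model, and those of SNHG6, SNHG11, ZFAS1 and SNHG17 on values near 0 in one of them. The median of entities that reached a TPM of 5 was 0.06 in the stable and -0.18 in the transient comparison. After centring on these medians 17 hosts were opposite. SNHG6 was then lower in both (-0.06 and -0.09), and SNHG11 was lower in the stable (-0.04) and higher in the transient comparison (0.05).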

How the results depend on the processing

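The count of host genes past 2-fold was 0 in the 4 comparisons under every alternative that kept that threshold. At 1.5-fold, as deposited, it was 0 in the stable comparison and 1 in the transient comparison. It was 4 for transient GFP against stable DsRed and 1 for transient against stable SPRR1A. Centring changed which hosts passed 1.5-fold. SNHG9 (-0.61) passed in the stable comparison and SNHG4 (-0.43) fell short in the transient one. Between the controls SNHG16 (-0.75) and DANCR (-0.74) still passed, but SNHG21 (0.54) and SNHG4 (0.52) did not. Between the SPRR1A libraries EPB41L4A-AS1 (0.594) and SNHG5 (0.593) passed in place of DANCR (-0.53). The median difference stayed below 0 in the stable comparison, from -0.15 after centring to -0.09. In the transient comparison it was -0.12 as deposited, 0.064 after centring and 0.032 when the total was taken without SPRR1A, and 20, 10 and 10 of 24 hosts were lower. Between the controls it was -0.02 as deposited and -0.15 after centring. Between the SPRR1A libraries it was -0.03 as deposited, 0.080 after centring and 0.113 without SPRR1A. No paired analysis was possible because the groups of a comparison share at most 1 replicate number, and no replicate could be left out. TPM keeps no depth, so the precision of low values, hosted small RNAs above all, is unknown.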
